A study of Mus musculus with 4 samples.

Results

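The subject is a set of 10 genes by which steroid-making and granulosa cells of the ovary are commonly recognised: Star, Cyp11a1, Hsd3b1, Cyp17a1, Cyp19a1, Akr1cl, Inha, Amh, Fshr and Lhcgr. They were chosen by name with earlier results of these data known, and 8 of the 10 have a probe set among 30712 named genes. The shares of all genes printed beside their counts and ranks therefore give scale and are no test. Cyp19a1 (aromatase) and Lhcgr (the luteinizing hormone receptor) are not listed in the probe annotation used here and were not analysed. The levels come from 4 Affymetrix arrays, 1 per group. The groups are oviduct of Gemc1-null female mice aged 65 days, oviduct of WT females aged 65 days, trachea of Gemc1-null males aged 39 days and trachea of WT males aged 39 days. All mice had the strain label mixed C57BL/6 x 129, the tissue was freshly isolated and untreated, and the labels give neither the stage of the oestrous cycle nor whether animals were pooled. Gemc1, now named Gmnc, encodes a geminin relative that multiciliated cells are known to need for their differentiation, and the study asks about its part in that programme.

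In the ovary, steroid synthesis begins when cholesterol is carried into mitochondria and cut to pregnenolone, which is then turned into progesterone, androgens and oestrogens. Theca cells around the follicle are known for making androgens, granulosa cells for turning these into oestrogens and for secreting inhibin and anti-Müllerian hormone, and luteal cells for making progesterone after ovulation. The oviduct lies against the ovary and is not itself known as a steroid-making organ.

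All levels below are log2 RMA signals (robust multi-array average), and all differences are on that log2 scale. Since each group had 1 array, no difference has a replicate check, an error or a test, and the number of arrays limits the precision. Genes are therefore described by size, with 2-fold (a log2 difference of 1) as the threshold. The negative-control probe sets had medians of 5.74 to 5.98 and 95th percentiles of 8.70 to 8.87, and the median over all probe sets was 5.91 to 6.00. The deleted gene went against its label in the oviduct: Gmnc stood at 8.86 on the oviduct array labelled null and at 6.11 on the WT one. In trachea Gmnc stood at 4.63 on the array labelled null and at 5.90 on the WT array. Both trachea values lie below the negative-control medians of their arrays, so they give no measured direction and do not check that label. The sources used here do not say which part of the gene was deleted, and a probe set outside it would check nothing. The tissue labels were in place: Ovgp1, the oviduct-specific glycoprotein, stood at 12.84 (labelled null) and 12.79 (WT) in oviduct and at 6.56 (labelled null) and 6.45 (WT) in trachea. Scgb1a1, the secretoglobin of airway club cells, stood at 5.67 (labelled null) and 5.32 (WT) in oviduct and at 8.39 (labelled null) and 12.74 (WT) in trachea.

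The oviduct array labelled null had lower levels than the WT oviduct array for all 8 measured genes, and 7 of the 8 were at least 2-fold lower. Among all named genes 1.84% were that much lower. Many low values lie in the background, so counts are also given with a floor, by which each level below its array's negative-control median is raised to that median. With the floor 6 of the 8 genes were at least 2-fold lower, beside 1.56% of all named genes. The opposite change, 2-fold or more higher, was seen for 0.554% of all genes and for none of the 8. The median difference of the 8 genes was -3.68, against 0.05 over all genes. In whole tissue, fewer cells of a type and less RNA per cell cannot be told apart.

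The genes of the first steps of steroid synthesis stood high on the WT oviduct array. Star, which carries cholesterol to the inner mitochondrial membrane, stood at 6.80 on the oviduct array labelled null and at 9.94 on the WT oviduct array, and at 6.01 and 5.92 on the trachea arrays labelled null and WT. Its difference in oviduct was -3.14, or 8.81-fold lower. Cyp11a1, the side-chain cleavage enzyme that makes pregnenolone, had 5.71 on the oviduct array labelled null against 12.05 on the WT oviduct array, with 5.48 on the trachea array labelled null and 5.51 on the WT trachea array. The 3 low values lie below the negative-control medians of their arrays, so the difference of -6.34 is given as at least 76.3-fold lower, taken against that median. A second probe set assigned to Cyp11a1 showed no such gap, with 5.85 on the oviduct array labelled null and 5.73 on the WT oviduct array. The 2 probe sets of this gene therefore disagree, and the brighter one was used by rule. Hsd3b1, which converts pregnenolone to progesterone, stood at 4.94 on the oviduct array labelled null and 10.42 on the WT oviduct array, and at 4.78 (labelled null) and 4.64 (WT) in trachea. It was at least 24.8-fold lower on the oviduct array labelled null (difference -5.48).

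Cyp17a1 and Akr1cl are the other measured enzyme genes of the set. Cyp17a1, the enzyme of theca cells that makes androgen precursors, had 5.31 on the oviduct array labelled null, 5.74 on the WT oviduct array, and 5.28 (labelled null) and 5.09 (WT) in trachea. All 4 values lie below the negative-control medians, so its difference of -0.43 carries no fold. Akr1cl encodes a relative of the AKR1C aldo-keto reductases, a family that includes steroid-metabolising enzymes. It stood at 4.80 on the oviduct array labelled null and at 10.13 on the WT oviduct array, and at 4.43 on the trachea array labelled null and 4.94 on the WT trachea array. The oviduct difference of -5.33 is at least 20.2-fold, with the low array again below its negative-control median.

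The granulosa hormones showed the same direction over a wider range of sizes. Inha, the alpha subunit of inhibin, which restrains pituitary follicle-stimulating hormone, had 8.12 on the oviduct array labelled null and 12.35 on the WT oviduct array. In trachea it stood at 8.56 on the array labelled null and at 8.23 on the WT array, so all 3 other arrays lay above the negative-control medians and below the 95th percentiles. The oviduct difference was -4.23, or 18.8-fold lower. Amh, the anti-Müllerian hormone of growing follicles, had 6.36 on the oviduct array labelled null and 7.79 on the WT oviduct array, a difference of -1.43 or 2.69-fold lower. Its trachea levels were 6.62 on the array labelled null and 6.14 on the WT array. Fshr, the receptor through which follicle-stimulating hormone acts on granulosa cells, stood at 4.75 on the oviduct array labelled null and 6.00 on the WT oviduct array. The difference was -1.25, but because the dimmer value is below its negative-control median the bound is at least 1.16-fold lower, which is short of 2-fold. Fshr is the gene lost from the count with the floor. In trachea Fshr had 4.65 on the array labelled null and 4.50 on the WT array, both below the negative-control medians.

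**Figure D1:**
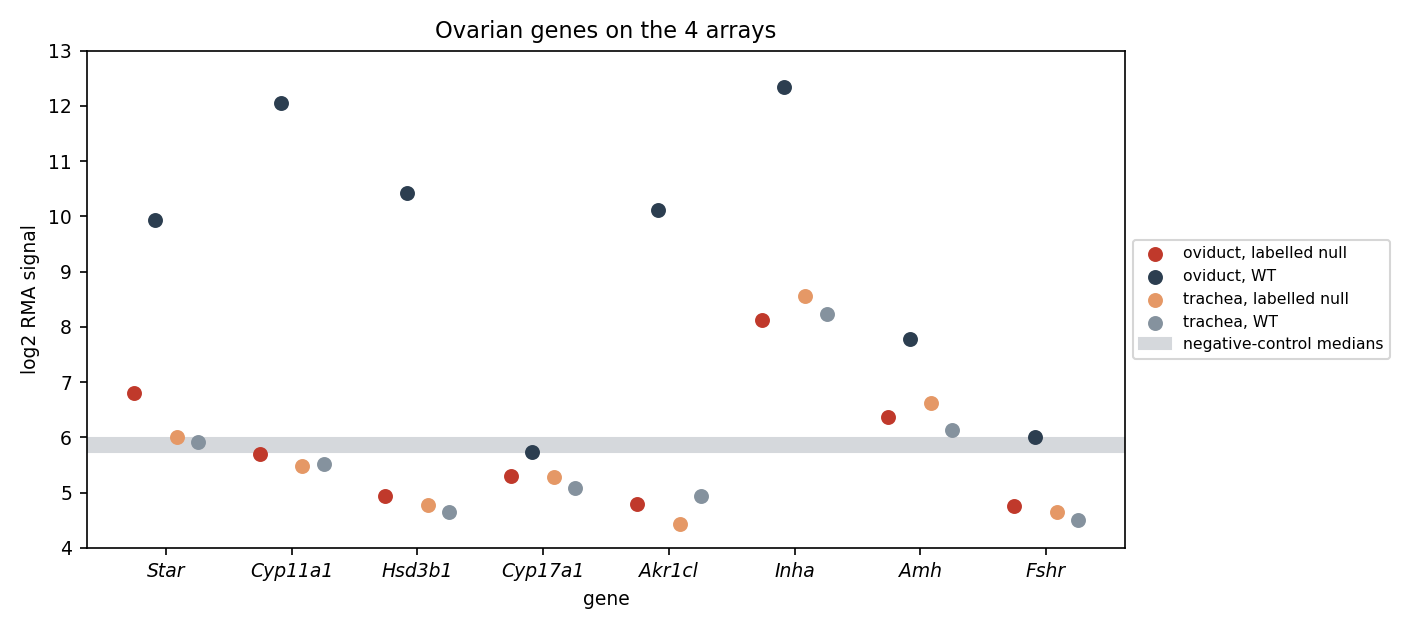
Log2 RMA signal of the 8 measured ovarian genes on the 4 arrays (points, 1 array per group); the grey band spans the 4 negative-control medians, 5.74 to 5.98. For Star, Cyp11a1, Hsd3b1, Akr1cl and Inha the WT oviduct point stands between 9.94 and 12.35, far above the other 3 points.

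By detection, 5 of the 8 genes exceeded the 95th percentile of the negative controls on the WT oviduct array, where 11.6% of all named genes did, and 0 of the 8 did so on any other array, where 10.6% to 12.2% of all genes did. On the oviduct array labelled null 5 of the 8 lay below the negative-control median, beside 34.0% of all named genes, and 1 of the 8 did on the WT oviduct array, beside 34.4%. In trachea 5 of the 8 lay below it on the array labelled null, beside 34.6%, and 6 of the 8 on the WT array, beside 39.5%. Star, Inha and Amh were the genes still above that median on the oviduct array labelled null.

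In trachea none of the 8 genes reached 2-fold between the array labelled null and the WT array, where 5.27% of all named genes were lower by this size and 4.39% higher. The differences ran between -0.51 for Akr1cl and 0.48 for Amh, with a median of 0.14. For 6 of these genes the trachea value was above 0 and the oviduct value below 0, as for 21.7% of all named genes. Of the 6, Hsd3b1, Fshr and Cyp17a1 lie below the negative-control medians on both trachea arrays, where a sign is no measured direction. Between the WT oviduct and the WT trachea arrays 7 of the 8 genes were at least 2-fold higher in oviduct, as were 3.63% of all named genes (4.37% were lower, and none of the 8), and the median difference was 4.07. With the floor 6 of the 8 were, beside 2.25% of all genes, since the bound for Fshr in this contrast is at least 1.01-fold. Between the null-labelled oviduct and trachea arrays none of the 8 reached 2-fold higher or lower, beside 4.5% of all genes higher and 4.7% lower, and the median was 0.13. Star had the largest difference there, at 0.79. Tissue, sex and age change together in these 2 contrasts. The oviduct contrast by genotype and the WT contrast between tissues share the WT oviduct array, so a single high value on it moves both.

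The WT oviduct array was the highest of the 4 for all 8 genes. A gene's excess was taken as its WT oviduct level minus the highest of its levels on the other 3 arrays. By this measure 7 of the 8 stood at least 2-fold above every other array, as did 0.531% of all named genes (163 genes). With the floor 6 of the 8 did, beside 0.358% of all genes (110 genes), and Fshr was lost. At 8-fold or more the share was 0.0228%, or 7 genes, and 5 of those were Cyp11a1, Hsd3b1, Akr1cl, Inha and Star. With the floor 6 genes reached 8-fold, or 0.0195%, and the same 5 were among them. Cyp11a1, Hsd3b1 and Akr1cl lie below the negative-control medians on all 3 other arrays, so their excess is a bound set by the floor: at least 6.06 for Cyp11a1, at least 4.44 for Hsd3b1 and at least 4.14 for Akr1cl. Inha had an excess of 3.79, Star of 3.14 and Amh of 1.17, which the floor did not move. In the order with the floor Cyp11a1, Hsd3b1, Akr1cl and Inha held ranks 1 to 4 of all named genes, Star rank 6 and Amh rank 81. Fshr had an excess of at least 0.02 and Cyp17a1, below the negative-control median on every array, has no rank. In the opposite direction the oviduct array labelled null stood at least 2-fold above the other 3 for 0.215% of named genes, and none of the 8 was among them.

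**Figure D2:**
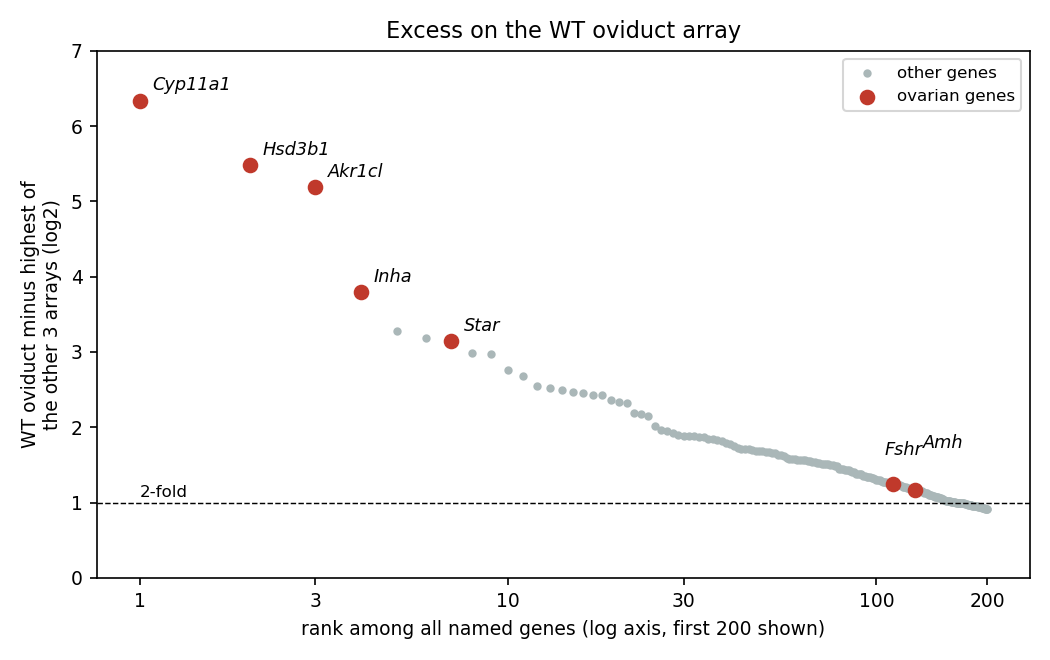
Excess of the WT oviduct level over the highest of the other 3 arrays (log2 scale) against the rank of the gene among all named genes (log axis, first 200 ranks), with the ovarian genes in red and the dashed line at 2-fold. Values are plotted as measured, without the floor; Cyp11a1, Hsd3b1, Akr1cl and Inha stand at ranks 1 to 4, and the points of Cyp11a1, Hsd3b1, Akr1cl and Fshr rest on background levels on the other arrays.

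The 15 other genes with the largest excess included several with known roles in ovarian cells. The excess of 7 of them was the same with the floor as without it: Stoml3 (3.18), Npl (2.98), Esr2 (2.54), the oestrogen receptor of granulosa cells, Slc18a2 (2.52), a vesicular monoamine transporter, Hsd17b1 (2.49), which makes oestradiol in granulosa cells, Hsd17b7 (2.42), an enzyme of oestrogen and cholesterol synthesis, and Prss35 (2.34), a protease-like protein. For the other 8 the excess rests on background levels and is a bound. Fdx1, the ferredoxin that passes electrons to Cyp11a1, had at least 2.25, Elobl at least 1.87 and Cyp2j11 at least 1.76. Nr5a2, a nuclear receptor needed for ovulation and luteal function, had at least 1.74, and Mgarp, a mitochondrial protein of steroid-making cells, at least 1.62. Gm609 had at least 1.46, Mmp8 at least 1.43 and Oosp3, named for its relation to oocyte-secreted proteins, at least 0.86, which is short of 2-fold.

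By Euclidean distance over the 4 arrays, each gene centred on its own mean, the profile of Cyp11a1 was nearest to that of Hsd3b1 (0.741) and next to those of Akr1cl (0.995), Inha (2.16) and Star (2.46). These distances take background levels as measured. The next were Stoml3 (2.56), Gm609 (2.67), Npl (2.77), Oosp3 (2.95), Cyp2j11 (3.12) and Nr5a2 (3.13). Amh (4.41), Fshr (4.43) and Cyp17a1 (5.17) were farther away, at ranks 232, 250 and 1968.

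Windows around RefSeq starts are shown for Cyp11a1, Inha, Hsd3b1 and Akr1cl, because those genes stood apart on the same array. RefSeq promoter windows of build GRCm38.p6 (250 bases before to 50 after the start) were found for 7 of the 10 genes, in 10 windows. Star, which also stood high on that array, had no window, nor did Cyp17a1 and Amh. Both strands were searched. The motif CAAGGTCA is the element of NR5A1, also called SF-1, and contains the motif AGGTCA, on which many nuclear receptors sit; TGACGTCA is a cyclic AMP response element. The motif AGATAA and the motif TGATAA are forms bound by GATA factors, and TATAAA is the TATA box. The motif AGGTCA was found in 4 of the 10 windows, in the second window of Cyp11a1, in Inha, in Lhcgr and in 1 window of Cyp19a1, while 16.3% of 32851 promoters hold it. Lhcgr and Cyp19a1 have no array level here. The first window of Cyp11a1 held none of the motifs and is not shown. CAAGGTCA was in none of the 10 and is in 1.56% of promoters. TGACGTCA was also in none and is in 1.79% of promoters. AGATAA was in 2 of the 10 (Hsd3b1 and Akr1cl) against 11.2% of promoters, TGATAA in none against 9.05%, and TATAAA in 2, both of Cyp19a1, against 13.6%. Capitals mark the match, which for Hsd3b1 is TTATCT, since the motif there lies on the opposite strand. The first base of the match is at -28 in Cyp11a1, -69 in Inha, -134 in Hsd3b1 and -241 in Akr1cl, counted from the RefSeq start of that window. The windows are chr9:58014702-58015001 on the plus strand for Cyp11a1, chr1:75507359-75507658 on the plus strand for Inha, chr3:98859745-98860044 on the minus strand for Hsd3b1 and chr1:65032710-65033009 on the minus strand for Akr1cl.
Cyp11a1: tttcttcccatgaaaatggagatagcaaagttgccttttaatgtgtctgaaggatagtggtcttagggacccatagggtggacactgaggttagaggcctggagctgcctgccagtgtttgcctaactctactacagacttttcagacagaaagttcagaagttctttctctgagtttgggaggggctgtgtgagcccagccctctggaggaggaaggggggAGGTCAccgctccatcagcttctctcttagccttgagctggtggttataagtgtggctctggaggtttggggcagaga
Inha: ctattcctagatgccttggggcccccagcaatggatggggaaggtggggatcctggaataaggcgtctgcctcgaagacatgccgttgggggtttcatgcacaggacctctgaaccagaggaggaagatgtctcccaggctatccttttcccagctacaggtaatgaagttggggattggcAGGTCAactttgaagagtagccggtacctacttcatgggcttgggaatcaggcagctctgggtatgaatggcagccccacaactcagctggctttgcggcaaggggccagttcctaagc
Hsd3b1: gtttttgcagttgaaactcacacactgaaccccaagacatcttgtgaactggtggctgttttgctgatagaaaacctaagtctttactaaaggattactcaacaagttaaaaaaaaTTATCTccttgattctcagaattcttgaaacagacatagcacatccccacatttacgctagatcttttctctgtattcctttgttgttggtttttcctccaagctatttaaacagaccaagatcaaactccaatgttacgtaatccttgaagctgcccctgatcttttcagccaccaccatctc
Akr1cl: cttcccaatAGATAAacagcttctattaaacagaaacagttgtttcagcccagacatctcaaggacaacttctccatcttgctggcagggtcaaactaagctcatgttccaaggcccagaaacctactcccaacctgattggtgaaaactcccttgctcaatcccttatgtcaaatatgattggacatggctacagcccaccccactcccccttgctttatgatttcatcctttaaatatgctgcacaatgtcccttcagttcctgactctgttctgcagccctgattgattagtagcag
A match describes letters in this window only. Whether these starts are the ones used in the ovary was not tested. From its first base to its match the Inha window reads in a frame without a stop. It may therefore lie inside the gene rather than before it, and its match may not be a promoter site.

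Most gene lists of related biology had medians below 0 in oviduct, of smaller size than that of the 8 genes. Counts are over genes past a level filter (at or above the array median on at least 1 of the 2 oviduct arrays), which a gene can pass by its WT level alone; past it 2.75% of all genes were lower by 2-fold or more and 0.811% higher. With the floor the oviduct shares were 2.43% lower and 0.705% higher. In trachea, with the filter applied to the trachea arrays instead, the shares were 7.74% lower and 6.34% higher. A list's count with the floor is given where it differs. Some genes are in more than 1 list, so the counts of the lists are not independent. Scarb1 and Hsd17b7 are in both the steroid supply and luteal lists, and Inhba is in the luteal and granulosa lists. Hsd17b1 is in the steroid supply and granulosa lists, and Nr5a2 in the granulosa and gonadal factor lists. Cholesterol supply and other steroid enzymes had 6 of 12 genes lower by this size and 0 higher (median -1.02). Hsd17b7 had 5.79 on the oviduct array labelled null against 9.49 on the WT array, Mgarp 4.92 against 7.61 and Hsd17b1 6.43 against 8.93. The WT oviduct array again held the high value of each pair. The Mgarp value on the array labelled null lies below its negative-control median, so its bound is at least 3.52-fold lower. Of 10 other luteal genes 6 were lower and 0 higher (median -1.09), including Scarb1, the HDL receptor that supplies cholesterol to steroid-making cells, with 7.78 on the array labelled null and 10.01 on the WT array, and Sfrp4, a secreted Wnt regulator, at 7.15 and 9.34. Of 15 cholesterol synthesis genes 5 were lower, or 4 with the floor (median -0.44), with Hmgcs1 at -1.55, Fdps at -1.47 and Sqle at -1.31. In trachea 0 of 15 were lower, 1 was higher and the median was 0.33. Past the trachea filter 3 of 12 steroid supply genes and 3 of 11 luteal genes were lower, and 0 of either list higher.

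Of 14 other granulosa genes 8 were lower by 2-fold or more and 1 higher (median -1.06). Nr5a2 had a difference of -2.92, Slc18a2 of -2.79 and Esr2 of -2.66. The Nr5a2 value on the array labelled null lies below its negative-control median, so its bound is at least 3.83-fold lower. Slc18a2 was 6.93-fold and Esr2 6.32-fold lower. The 1 higher gene, singled out after its value was seen, was Kctd14, at 10.13 on the oviduct array labelled null and 8.42 on the WT array. Of 7 theca genes past the filter, Aldh1a1 (-2.07), a retinaldehyde dehydrogenase, and Hhip (-1.01), an inhibitor of hedgehog signalling, were lower, Hhip with a bound of at least 1.94-fold, and the third by size, Nr5a1, had -0.86 (list median -0.56). Nr5a1 encodes the receptor SF-1, a regulator of steroidogenic genes. In trachea Aldh1a1 had -2.42 and Hhip -1.87, and both were highest on the WT trachea array, at 12.30 and 7.70. Past the trachea filter 2 of 7 theca genes were lower and 0 higher. Of 13 granulosa genes there 0 were lower and 1 higher. Gonadal transcription factors moved less in oviduct: 2 of 14 were lower (median -0.28), Nr5a2 and Nr4a1 (-1.20), and Runx1 had -0.98. In trachea 1 of 12 was lower, Runx1 at -2.03, and 0 were higher.

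Among the oocyte genes past the filter 7 of 15 were lower by 2-fold or more and 0 higher (median -0.98). With the floor 5 of 15 were lower (median -0.74). All 7 lie below the array median (6.00) on the array labelled null, so each passed the filter by its WT level alone. The filter also leaves out low genes, so these counts and medians do not describe all 20 measured oocyte genes. Zp2, a zona pellucida protein of the egg coat, had 4.52 on the oviduct array labelled null and 6.49 on the WT array, Zp3, a second protein of that coat, had 5.59 and 7.47, and Bmp15, a growth factor of the oocyte, 5.63 and 7.19. The 3 values on the array labelled null lie below its negative-control median, so the bounds are at least 1.63-fold for Zp2, at least 3.19-fold for Zp3 and at least 2.64-fold for Bmp15. Over all 20 measured oocyte genes the mean level was 5.80 on the oviduct array labelled null and 6.59 on the WT oviduct array, and 5.70 (labelled null) and 5.60 (WT) in trachea. The part of oocyte markers in the differences of the steroidogenic and granulosa genes was not tested. Steroid-responsive and receptor genes split: 2 of 18 were lower, Esr2 at -2.66 and Fkbp5, a glucocorticoid-responsive chaperone, at -1.88, and Lcn2, the third by size, had -0.99 (list median -0.22). Ovulation and cumulus genes had 1 of 10 lower (Vcan, -1.04, with a bound of at least 1.95-fold and so 0 with the floor) and 1 higher (Snap25, 1.26), with Rgs2 at -0.95 and a median of 0.11. Adrenal and Leydig genes had 1 of 5 lower, or 0 with the floor, the gene being Hsd3b6 at -1.57, with Mrap at -0.68 and Cyp11b2 at 0.21.

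In the lists of other cell types the dissected tissue could hold, levels were closer between the oviduct arrays. In endothelium, macrophage, adipocyte, mesothelium, oviduct secretory, general epithelium, smooth muscle and uterus lists, 0 of the genes past the filter reached 2-fold lower or higher in oviduct. Their medians ran between -0.20 for endothelium and 0.46 for the oviduct secretory epithelium. In that last list the largest difference was that of Muc1 (0.977), at 9.36 on the array labelled null and 8.39 on the WT array. Pax8 (0.680) had 10.24 on the array labelled null and 9.57 on the WT array, and Krt7 had 0.614. Across 70 measured genes of these lists 0 had a WT oviduct excess of 2-fold. Of 89 genes of the ovarian lists 19 had one (21.3%), beside 0.531% of all named genes. With the floor 16 had one (18.0%), beside 0.358% of all named genes. The ovarian lists here are steroid supply, luteal, granulosa, theca, gonadal factors, oocyte, and ovulation and cumulus, without the 10 genes. Over the same 89 genes 29 were at least 2-fold lower in oviduct (32.6%), beside 1.84% of all named genes. With the floor 23 were (25.8%), beside 1.56%. All of these lists were chosen with earlier results of these data known. Motile cilia genes, the programme named in the study's title, were at least 2-fold lower for 17 of 18 in oviduct and 17 of 18 in trachea. Among all genes past the filter of each tissue 2.75% were that much lower in oviduct and 7.74% in trachea. None of the 18 cilia genes had a WT oviduct excess of 2-fold. The airway secretory list, kept apart from the lists of other cell types above, did move in oviduct. Of its 6 genes past the filter 2 were at least 2-fold higher and 0 lower (median 0.73). Agr2 had 1.43, Scgb3a1 1.16 and Sftpd 0.999.

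**Figure D3:**
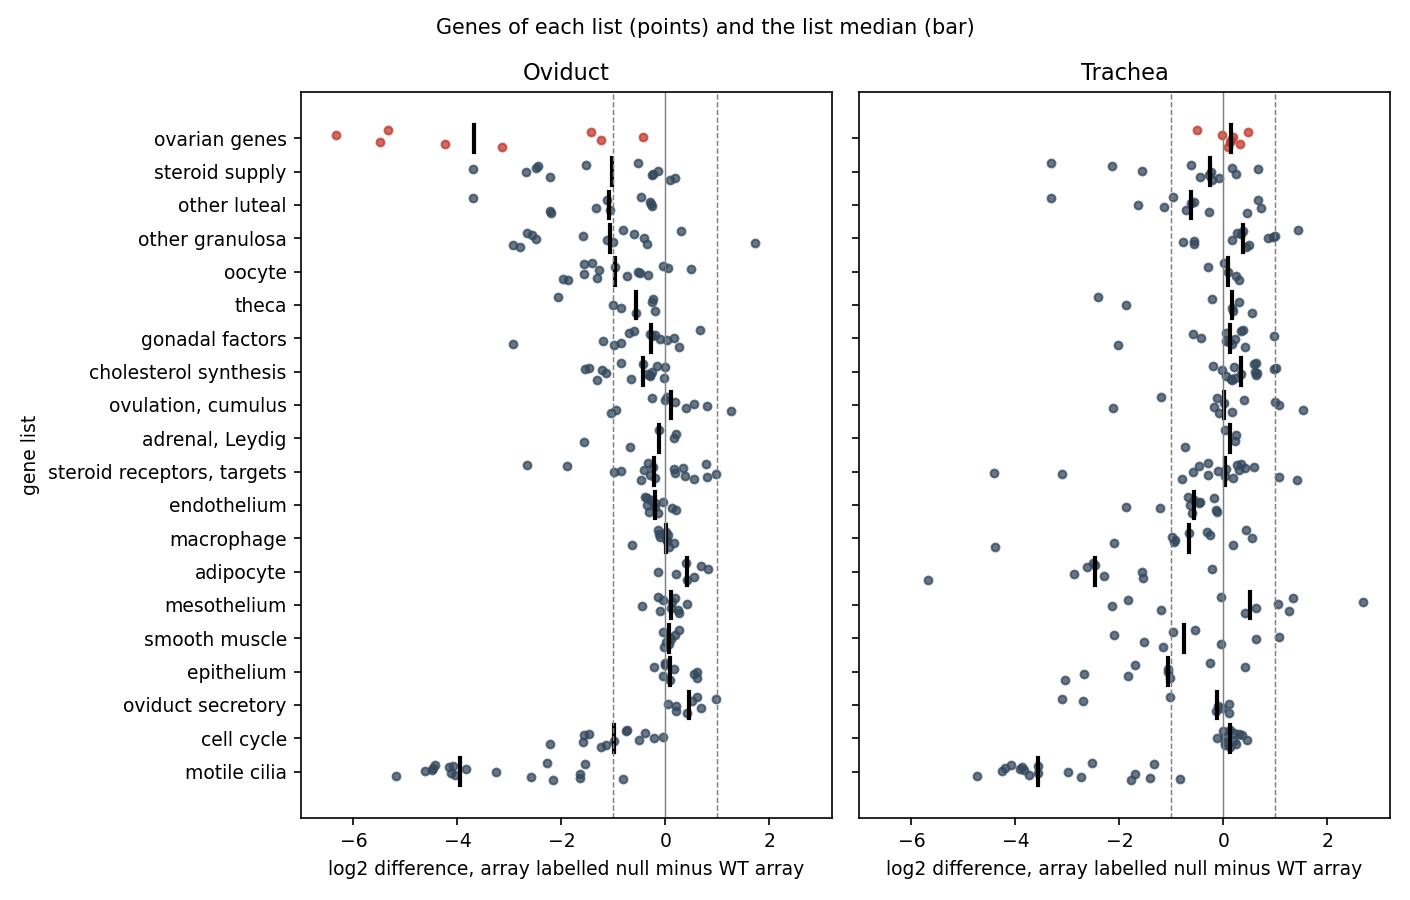
Log2 difference (array labelled null minus WT array) of each gene of the lists in oviduct (left) and trachea (right), with the list median as a bar and dashed lines at 2-fold. Listed genes other than the ovarian ones are those past the level filter in that tissue. The uterus and airway secretory lists are not drawn. The ovarian genes have a median of -3.68 in oviduct and 0.14 in trachea, while motile cilia genes lie at -3.94 and -3.56.

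Relatives of the ovarian genes were compared with them. Of the Hsd3b paralogs, Hsd3b6 had 4.94 on the oviduct array labelled null and 6.52 on the WT array (-1.57), with a bound of at least 1.65-fold. Hsd3b2 (-0.35), Hsd3b3 (-0.81), Hsd3b5 (-0.33) and Hsd3b7 (0.21) did not reach 2-fold. These paralogs are alike in sequence, so signal of Hsd3b1 transcripts on their probe sets cannot be told apart from signal of their own. Of the other 8 Akr1c genes none was at least 2-fold lower in oviduct, and Akr1c19 was higher, at 7.31 on the array labelled null and 5.72 on the WT array (1.59). The beta subunits that pair with Inha in inhibin were lower by smaller amounts, Inhba at -1.12 and Inhbb at -1.01, while Inhbc (0.33) and Inhbe (-0.05) were not. Inhba and Inhbb also had differences of -0.57 and -0.78 in trachea. Amhr2, the receptor of anti-Müllerian hormone, had 6.95 on the oviduct array labelled null and 7.77 on the WT array (-0.81), but 7.70 on the trachea array labelled null and 6.26 on the WT array (1.44). None of 9 proteins that share the lipid-binding domain of Star reached 2-fold in oviduct; their differences ran from -0.32 for Stard5 to 0.62 for Stard10.

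**Figure D4:**
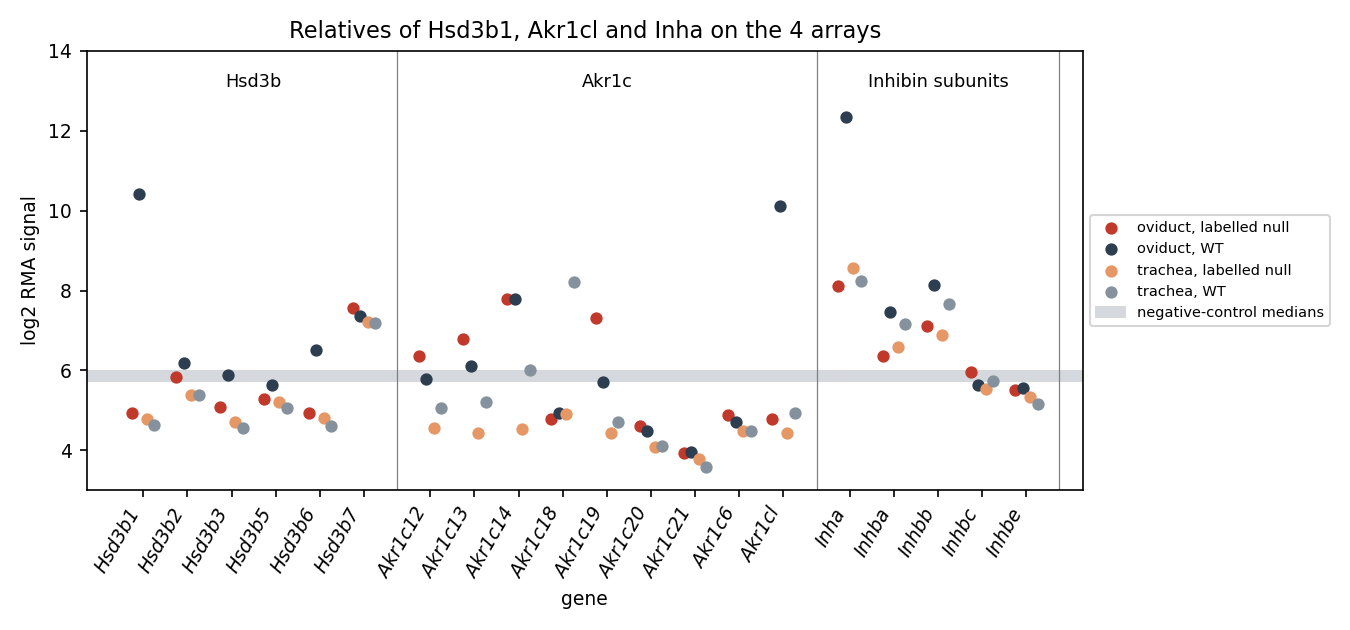
Log2 RMA signal of the relatives of Hsd3b1, Akr1cl and Inha on the 4 arrays (points), with the negative-control medians as a grey band. Hsd3b1, Akr1cl and Inha have a WT oviduct point between 10.13 and 12.35, while Hsd3b6 has 6.52 and Akr1c18 has its highest point, 8.21, on the WT trachea array.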

How the data were processed

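RNA of whole trachea and oviduct was hybridised to 1-colour Affymetrix arrays, per the labels' protocols. The deposited values were made by the authors with RMA, per the submitters' processing notes; its version and settings are not given there. A further log2 had been taken of the deposited values, since raising 2 to each gives 6 significant digits in 100% of the cells (relative tolerance 1e-09); the raised value is used here as log2 signal. Of 65956 transcript clusters, 31268 were named by the platform annotation and a RefSeq table (GRCm38.p6), 1482 had several genes and 33206 were not listed, which gave 30712 genes. Of the 441 genes with several probe sets the probe set with the highest mean was used.

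Groups follow the labels, with 1 array each, so no test was run and genes were counted by size, at least 2-fold. Where the dimmer value fell below its array's negative-control median, a printed fold was taken against that median; counts use the values as measured, and counts with all such levels raised to the median are given beside them. A fit over both tissues was not run, since it takes a disagreement between tissues as error. The counting was tested on simulated data and recovered the planted genes. The 10 genes, the 21 comparison lists and the motifs were chosen with earlier results of these data known. Text names all 10 genes, the 15 largest excesses and the 10 genes nearest to Cyp11a1. The 3 largest differences are named for each list except endothelium, macrophage, adipocyte, mesothelium, general epithelium, smooth muscle, uterus and motile cilia. Alternatives were other fold thresholds, a negative-control floor, centring, quantile normalization, all probe sets averaged and the level filter. Analyses used Python 3.11.15, numpy 2.4.6 and pandas 2.3.3.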

Additional observations from a re-analysis of the deposited data

Results flagged for a closer look

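For 6 of the 8 measured ovarian genes the difference between the arrays labelled null and WT had opposite signs in oviduct and trachea, the oviduct being below 0 in each. The same pair of signs was seen for 21.7% of all named genes. The gap between the differences (oviduct minus trachea) was -5.62 for Hsd3b1, -4.55 for Inha, -3.23 for Star, -1.91 for Amh, -1.39 for Fshr and -0.62 for Cyp17a1. With 1 array per group these gaps were not tested. Tissue, sex and age differ together between the 2 contrasts. Among the 6, Hsd3b1, Fshr and Cyp17a1 lie below the negative-control medians on both trachea arrays, so the sign of their trachea value is not a measured direction.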

How the results depend on the processing

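With no replicate, no alternative tests a difference; each recounts the genes past a size. The counts of ovarian genes past 2-fold kept within 1.5 times of those reported in each contrast, except that between the null-labelled oviduct and trachea arrays 1 gene (Star) passed a 1.5-fold threshold, against 0 at 2-fold. The count of list genes past 2-fold in oviduct (61) was 33 at a 3-fold threshold. With levels below the negative-control median raised to it, the differences were -4.63 for Hsd3b1, -4.33 for Akr1cl and -0.21 for Fshr, so that 6 of the 8 genes were at least 2-fold lower, 6 were higher in WT oviduct than in WT trachea and 6 had the WT oviduct excess, and Cyp17a1 had 0.02. Averaging both probe sets gave -3.11 for Cyp11a1. Over all genes, those at least 2-fold lower in oviduct (564) numbered 1147 at 1.5-fold and 269 at 3-fold. Genes at least 2-fold higher there (170) numbered 723 at 1.5-fold and 36 at 3-fold. In trachea, 1617 genes lower at 2-fold became 2874 at 1.5-fold and 879 at 3-fold. The 1349 genes higher in trachea became 2723 at 1.5-fold and 635 at 3-fold. A WT oviduct excess (163 genes) was seen for 429 at 1.5-fold, 57 at 3-fold and 110 with the floor. The level filter was not an alternative for the lists, which already pass it. No paired analysis was possible because each group has 1 array and the labels carry no replicate number. Signal over background limits the values of Cyp11a1, Hsd3b1, Akr1cl and Fshr, which are bounds, and Cyp17a1 has none.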

Other observations

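Of 13 cell cycle genes past the filter 6 were at least 2-fold lower in oviduct (median -0.99), beside 2.75% of all genes past it. With levels below the negative-control median raised to it 4 were lower, beside 2.43%. Mki67, Kif11 and Top2a lay below the array median on the array labelled null, so they passed the filter by their WT level alone. The 3 largest differences were those of Mki67 at 5.55 on the array labelled null and 7.77 on the WT array, Kif11 at 4.97 and 6.55, and Ccnb2 at 6.20 and 7.77. The bound is at least 3.95-fold lower for Mki67 and at least 1.70-fold lower for Kif11. In trachea 0 of 13 reached 2-fold, beside 7.74% of all genes past the filter lower and 6.34% higher, and the median was 0.13.

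Adipocyte genes had a median of 0.41 in oviduct and of -2.47 in trachea. There 8 of 9 were at least 2-fold lower on the array labelled null, beside 7.74% of all genes past the filter. Tshr, the thyrotropin receptor and a relative of Fshr, stood at 10.17 on the oviduct array labelled null and 9.14 on the WT oviduct array. Akr1c18, a progesterone-inactivating enzyme of the corpus luteum, stood at 4.80 and 4.93 on the oviduct arrays labelled null and WT, and at 4.90 and 8.21 on the trachea arrays labelled null and WT. Of 33206 transcript clusters without a listed gene, 118 (0.355%) had a WT oviduct level at least 2-fold above the other 3 arrays and 14 (0.0422%) at least 8-fold above. These clusters are not named here.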
